A study of Mus musculus with 2 samples.

Results

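Glucose and glycogen metabolism was followed through 8 genes, G6pc, Pck1, Fbp1, Pcx, Pklr, Gys2, Pygl and Slc2a2, in 2 single-cell RNA-seq libraries of mouse hepatocytes isolated by liver perfusion. The genes were chosen by name for their place in the pathway, with earlier results of these data known. All 8, of 31053 genes in the count table, had reads in both libraries. The control library was of genotype LaptTA;WT and the other, here called tetYAP 4W, of genotype LaptTA; tetYAP, both on a C57BL/6 background. Mice of both genotypes carried the tetracycline transactivator tTA under the LAP promoter, which is active in liver. The tetYAP mice carried in addition a tTA-driven transgene of a constitutively active YAP, the transcriptional co-activator restrained by the Hippo pathway. Per the study's methods, food with doxycycline kept the transgene silent, a regular diet from 4 weeks of age released it, and 4 weeks of induction preceded the tetYAP 4W library. The number of animals behind a library and the age of the control were not stated. With 1 library a genotype no difference could be tested, and the intervals given cover counting error only.

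Hepatocytes keep blood glucose within a narrow range. In the fasted state they make glucose from lactate, glycerol and amino acids and release it from glycogen, and in the fed state they take glucose up, store it as glycogen or pass it into glycolysis. Insulin and glucagon set the direction, in good part by changing transcription of the genes for the key enzymes.

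The genes encode proteins of 4 roles. Pcx, Pck1, Fbp1 and G6pc stand for the steps at which gluconeogenesis bypasses glycolysis, from pyruvate to free glucose, and Pklr encodes the liver pyruvate kinase of the opposite pathway. Gys2 encodes the liver glycogen synthase and Pygl the liver glycogen phosphorylase, which build and break down glycogen. Slc2a2 encodes GLUT2, the transporter that carries glucose across the hepatocyte membrane in both directions.

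RefSeq promoters of build GRCm38.p6, from 250 bases before to 50 bases after a transcript start, were found for 7 of the 8 genes, in 9 windows. The 250 bases before the start are shown for the genes whose values the results turn on, G6pc, with the lowest ratio between the libraries, Pck1, which changed direction with the barcodes used, and Slc2a2, which went against the other members. They are written 5′ to 3′ on the strand of the gene, and capitals mark the letters TATAAA, the core of a TATA box.
G6pc, chr11:101367466-101367715, plus strand: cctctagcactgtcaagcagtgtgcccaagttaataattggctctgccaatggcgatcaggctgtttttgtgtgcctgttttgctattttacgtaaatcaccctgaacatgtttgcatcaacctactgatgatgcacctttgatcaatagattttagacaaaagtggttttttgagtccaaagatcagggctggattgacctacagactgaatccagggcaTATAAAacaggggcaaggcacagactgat
Pck1, chr2:173152823-173153072, plus strand: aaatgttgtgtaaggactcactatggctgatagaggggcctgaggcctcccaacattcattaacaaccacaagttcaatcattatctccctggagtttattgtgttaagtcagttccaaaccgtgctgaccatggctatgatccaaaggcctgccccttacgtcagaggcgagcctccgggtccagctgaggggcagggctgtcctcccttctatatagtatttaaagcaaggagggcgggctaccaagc
Slc2a2, chr3:28697653-28697902, plus strand: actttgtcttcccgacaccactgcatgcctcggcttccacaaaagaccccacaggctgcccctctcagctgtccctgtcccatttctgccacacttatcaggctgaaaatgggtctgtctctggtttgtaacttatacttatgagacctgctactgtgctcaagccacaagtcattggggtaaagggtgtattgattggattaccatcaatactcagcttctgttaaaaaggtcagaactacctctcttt

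The letters TATAAA occurred in 2 of the 9 windows, 29 bases before the start of G6pc and 31 bases before one of the 2 starts of Pklr, against 13.6% of all 32851 promoters. GGAATG, the core bound by TEAD factors, the DNA-binding partners of YAP, was in 0 of the 9 windows and in 14.7% of all promoters. TGACGTCA, the full cyclic AMP response element, CAAAGTCCA, read by HNF4A, and TGTTTAC, read by FOX factors, were also in 0 of the 9 windows, and in 1.79%, 0.475% and 3.65% of all promoters. Both strands were searched, no matches overlapped in the windows of these genes, and a window without these letters says nothing of the factor. The whole genes lie at chr11:101367716-101377903 (G6pc), chr2:173153073-173159274 (Pck1), chr13:62864753-62888298 (Fbp1), chr19:4510472-4621752 (Pcx), chr3:89136122-89146815 (Pklr), chr6:142422612-142473130 (Gys2), chr12:70190815-70227683 (Pygl) and chr3:28697903-28728361 (Slc2a2).

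The control library held 2989 barcodes with a median of 3117 UMIs (unique molecular identifiers, each 1 counted RNA molecule) and the tetYAP 4W library 1524 with a median of 4150. Median mitochondrial shares of UMIs were 28.1% and 37.7%, and no barcode was shared. Yap1 had 155 UMIs (16.3 CPM, counts per 1000000 UMIs) in the control library and 128 UMIs (18.9 CPM) in the other. UMIs of 4 Y-linked genes numbered 716 and 0, and those of Xist 3 and 4859, so that sex and genotype cannot be told apart. Clustering without the 8 genes gave 2691 hepatocyte-like barcodes in the control (90.0%) and 730 in tetYAP 4W (47.9%), with median depths of 3096 and 4054.5 UMIs and median mitochondrial shares of 28.2% and 57.1%. The clusters behind the class were different ones in the 2 libraries, of 1248, 1056, 270 and 117 barcodes in the control and of 462, 190 and 78 in tetYAP 4W, the 462 with a median mitochondrial share of 61.1%. The class was called from the lack of other cells' markers, since RNA of the 12 hepatocyte markers was everywhere: their median was 348 and 367 UMIs in hepatocyte-like barcodes, 359 and 308 in T- or NK-like barcodes and 349 and 291 in endothelial-like ones.

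G6pc, the catalytic subunit of glucose-6-phosphatase, which frees glucose in the last step of both gluconeogenesis and glycogen breakdown, stood lowest among the 8. In hepatocyte-like barcodes it had 1298 UMIs in the control, or 154 CPM (146 to 163), and 165 in tetYAP 4W, or 52.2 CPM (44.5 to 60.8). The intervals were far apart, with a log2 ratio of tetYAP 4W over control of -1.56 (-1.81 to -1.33). Of the 8725 genes with at least 30 UMIs in the 2 libraries together, 4.09% had a lower ratio. Those genes had a median log2 ratio of -0.26, and relative to this median, the measure used below where a value is called relative, G6pc stood at -1.31. Over all barcodes, with no class called, it had 151 and 40.3 CPM and a log2 ratio of -1.91 (-2.10 to -1.72). There the median of all genes was 0.51 and the relative ratio -2.42. Fewer hepatocytes and less RNA per hepatocyte cannot be told apart in the sum over all barcodes.

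Pck1, the cytosolic phosphoenolpyruvate carboxykinase, which commits oxaloacetate to glucose synthesis, was close to the typical gene. Its 1799 and 525 UMIs in hepatocyte-like barcodes gave 214 and 166 CPM, a log2 ratio of -0.37 (-0.51 to -0.22) and a relative one of -0.11. Fbp1, fructose-1,6-bisphosphatase, had 4690 and 959 UMIs, 558 and 303 CPM and a log2 ratio of -0.88 (-0.98 to -0.78). Pcx, pyruvate carboxylase, the mitochondrial entry step, had 450 and 122 UMIs, 53.5 and 38.6 CPM and a log2 ratio of -0.47 (-0.77 to -0.18). The 4 enzymes of 1 pathway were thus unevenly lower in the tetYAP 4W library, and only the intervals of G6pc and Fbp1 lay wholly below the median of all genes.

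Pklr, on the glycolytic side, had 206 and 45 UMIs, 24.5 and 14.2 CPM and a log2 ratio of -0.78 (-1.28 to -0.31). Scaled by all UMIs, the enzyme opposing gluconeogenesis was thus also lower in tetYAP 4W. Its interval reached over 0 per non-mitochondrial UMIs, at -0.16 (-0.66 to 0.31). It also did so in barcodes with at most 30% mitochondrial UMIs, at 0.18 (-0.81 to 1.03). Gys2 had 165 and 27 UMIs, 19.6 and 8.54 CPM and a log2 ratio of -1.20 (-1.84 to -0.61). Pygl had 1207 and 238 UMIs, 144 and 75.3 CPM and a log2 ratio of -0.93 (-1.14 to -0.73). The genes for making and for breaking down glycogen were lower side by side, and their intervals overlapped. Levels of both genes in other classes of barcodes are given below.

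Slc2a2 was the exception. It had 1151 and 525 UMIs, or 137 CPM in the control and 166 in tetYAP 4W, a log2 ratio of 0.28 (0.13 to 0.43) and a relative one of 0.54. Over all barcodes, its 134 and 123 CPM gave -0.12 (-0.25 to 0.00).

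Across the 8 genes the median log2 ratio in hepatocyte-like barcodes was -0.83, and 7 of 8 were lower, where all genes had a median of -0.26. Past 2-fold lower were 2, G6pc and Gys2, where 16.7% of all genes were. Relative to the median of all genes the 8 had a median of -0.57, and 1, G6pc, was past 2-fold lower, against a background of 9.56%. Over all barcodes 2 of 8 were past 2-fold lower (background 7.76%), and relative to the median of all genes 7 of 8 (background 17.7%). A cluster of 190 tetYAP 4W barcodes called hepatocyte-like held 5741 CPM of macrophage markers. Without it the median of the 8 was -0.999, and 4 of 8 were past 2-fold lower (background 29.2%). G6pc was then at -1.67 (-1.95 to -1.39) and Gys2 at -1.87 (-2.81 to -1.06). Genes in general were lower too, with a median of -0.47. The median mitochondrial share was 32.7% in the removed cluster and 60.4% in the tetYAP 4W barcodes left. On the relative scale G6pc rose from -1.31 to -1.19 and the median of the 8 from -0.57 to -0.53. Gys2 and Fbp1 fell on that scale, to -1.40 and -0.65. The relative ratios of Pck1 and Pcx turned to 0.03 and 0.08.

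**Figure D1:**
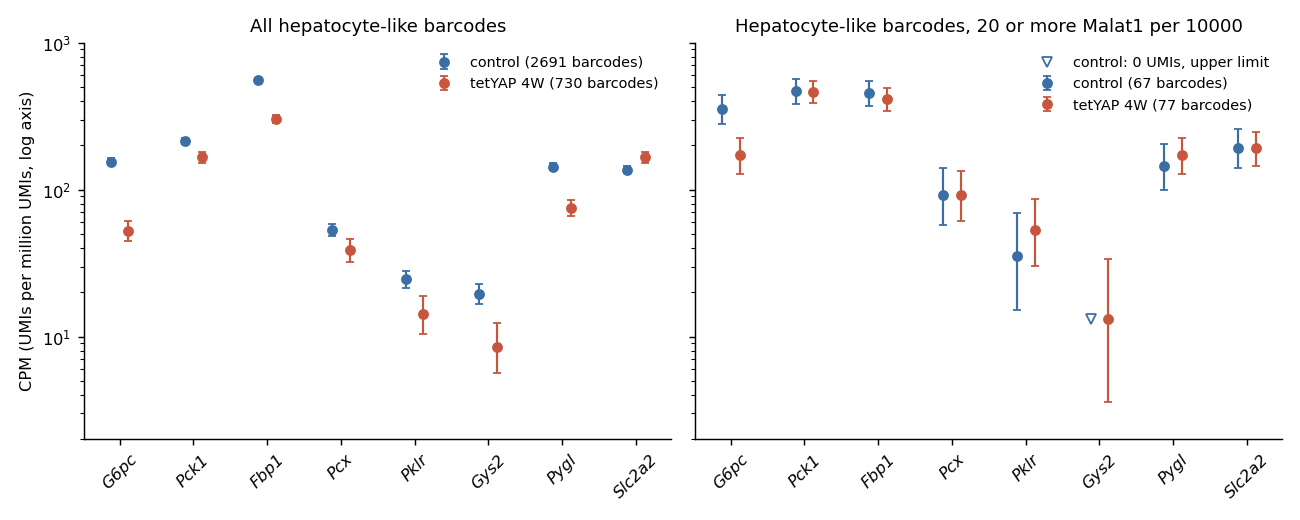
Levels of the 8 genes in CPM (log axis) in the control (blue) and tetYAP 4W (red) library, in all hepatocyte-like barcodes (left) and in those with 20 or more Malat1 UMIs per 10000 (right). Points are summed UMIs over the total, bars exact Poisson 95% intervals, and an open triangle the limit that 0 UMIs allow; G6pc was at 154 and 52.2 CPM on the left and at 352 and 172 CPM on the right, while Slc2a2 was at 137 and 166 CPM on the left.

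These ratios moved with the total by which counts were scaled, and mitochondrial RNA took a larger share of tetYAP 4W barcodes. With non-mitochondrial UMIs as the total, G6pc was at 217 and 113 CPM, a log2 ratio of -0.95 (-1.19 to -0.71). Slc2a2 was at 193 and 359 CPM, a log2 ratio of 0.90 (0.75 to 1.05). Pck1 turned from lower to higher, at 301 and 359 CPM and 0.25 (0.11 to 0.39), and Pcx turned as well, at 0.15 (-0.15 to 0.44). Fbp1 stood at -0.26 (-0.36 to -0.16) and Pygl at -0.31 (-0.52 to -0.11), and the intervals of Pklr and Gys2 reached over 0. The relative ratios are the same on either total, because the median of all genes moved with it, to 0.36.

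Barcodes with at most 30% mitochondrial UMIs numbered 1657 in the control and 109 in tetYAP 4W. In these, G6pc was at 162 and 145 CPM, a log2 ratio of -0.17 (-0.57 to 0.21), and its difference was no longer beyond counting error. Pck1 was at 210 and 394 CPM, 0.91 (0.66 to 1.15), and Slc2a2 at 142 and 193 CPM, 0.45 (0.10 to 0.79). The median of the 8 was 0.00, but that of all genes had moved to 0.60. Relative to it 7 of 8 were lower, with a median of -0.59. Slc2a2 was among them, at -0.14 (-0.50 to 0.19), and Pck1 stood higher, at 0.32. None of the 8 was past 2-fold lower (background 2.71%). Counts under 3 were set to 3 UMIs, which was 0.590 CPM in the control pool and 7.35 CPM in that of tetYAP 4W. This can raise the ratios of genes with few UMIs, and with them the median of all genes. It can also lower the share of genes past 2-fold lower. Its part in the 0.60 and in the relative values was not tested. Of these 1657 and 109 barcodes, 42 and 38 were rich in Malat1, the RNA by which barcodes are ordered next.

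**Figure D2:**
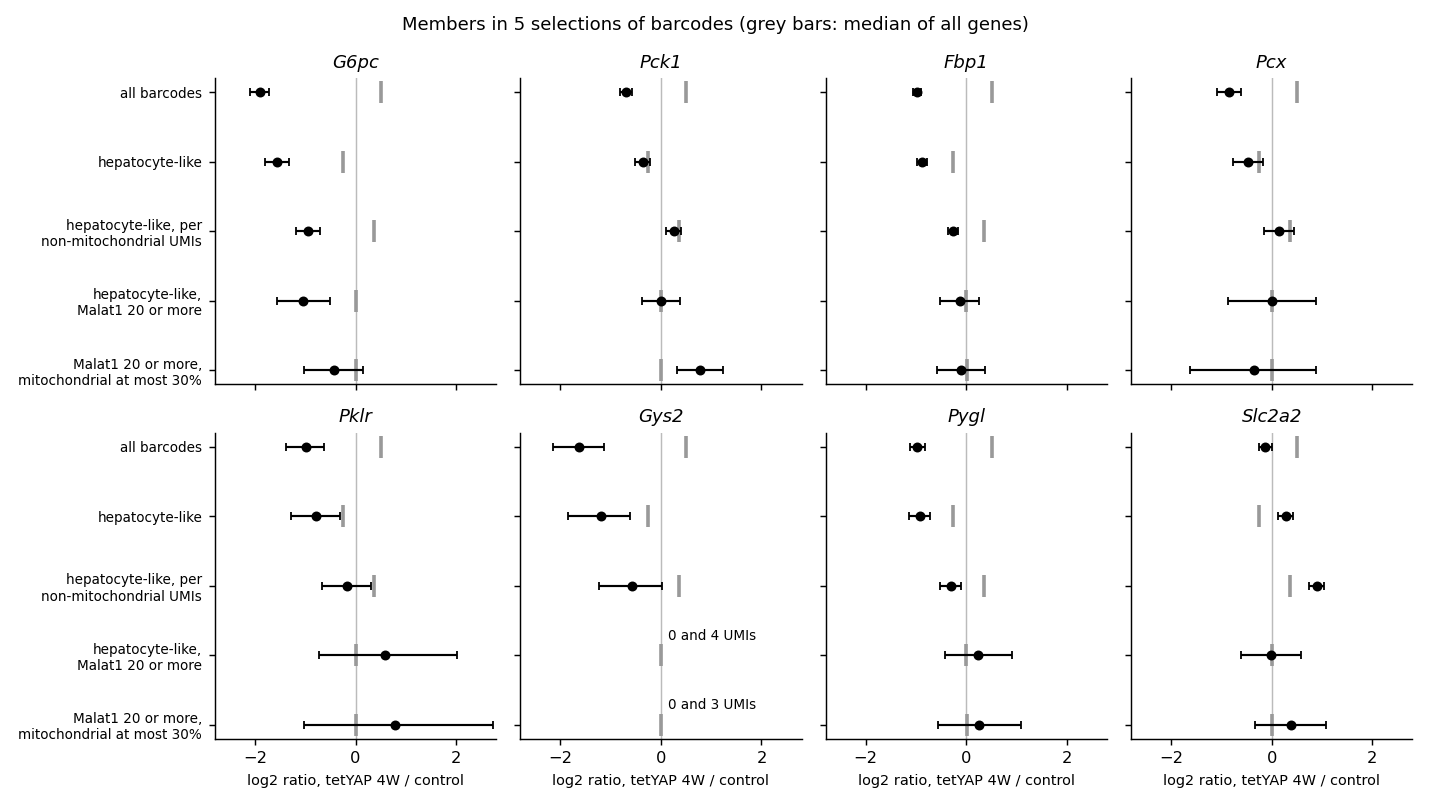
Log2 ratio of tetYAP 4W over control for each of the 8 genes in 5 selections of barcodes; points are ratios of summed UMIs, bars exact 95% intervals and grey marks the median of all genes in that selection. G6pc lay left of 0 and of the grey mark in all 5, with an interval that reached 0 in the last, while Slc2a2 lay right of the grey mark in hepatocyte-like barcodes on either total.

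Malat1, a long non-coding RNA kept in the nucleus, was used to order the hepatocyte-like barcodes. Their median was 5.78 Malat1 UMIs per 10000 in the control and 5.33 in tetYAP 4W, where T- or NK-like barcodes had 58.9 and 71.1. With 20 or more per 10000 there were 67 control barcodes (227374 UMIs) and 77 tetYAP 4W barcodes (302982 UMIs), with median mitochondrial shares of 26.6% and 30.5%. Counts within 5 of that limit were found in 113 and 38 barcodes, and the limit was set after the data had been seen. The 12 hepatocyte markers summed to 85379 and 77747 CPM in these barcodes. Of 12 macrophage markers 2 and 11 had a UMI, summing to 8.80 and 1102 CPM, and Ms4a7 was at 0 in both. The part of macrophage RNA in the ratios below was not tested.

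In these Malat1-rich barcodes G6pc had 80 UMIs in the control, or 352 CPM (279 to 438), and 52 in tetYAP 4W, or 172 CPM (128 to 225). Its log2 ratio was -1.04 (-1.57 to -0.51), and the median of all 1866 genes with enough counts was 0.00. No other member differed beyond counting error. Pck1 had 106 and 141 UMIs, 466 and 465 CPM. Fbp1 had 103 and 125 UMIs, 453 and 413 CPM and a log2 ratio of -0.13 (-0.52 to 0.26). Pygl, with 33 and 52 UMIs, stood at 0.24 (-0.41 to 0.92), and Slc2a2, with 44 and 58 UMIs, at -0.02 (-0.61 to 0.58). Pcx had 21 and 28 UMIs and Pklr 8 and 16, with intervals of -0.87 to 0.89 and -0.72 to 2.02. Gys2 had 0 UMIs in 67 control barcodes, which allows up to 13.2 CPM when a count of 0 is limited at 3 UMIs, and 4 in 77 tetYAP 4W barcodes, also 13.2 CPM. Past 2-fold lower was 1 of 8, G6pc, with a background of 9.32%. The intervals of Pck1, Pcx and Slc2a2 still held their ratios over all hepatocyte-like barcodes, so that differences of that size were not detectable at this depth. Those of Fbp1, Pklr and Pygl lay above theirs. On the relative scale that of Pklr, -0.72 to 2.02, held its ratio of -0.52 over the whole class, while those of Fbp1 and Pygl stayed above. At least 30 UMIs were reached by 6 of the 8 here and by all 8 in the whole class.

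The G6pc difference in Malat1-rich barcodes moved with the mitochondrial share. With at most 30% mitochondrial UMIs, in 42 and 38 barcodes, G6pc had 62 and 43 UMIs, 388 and 289 CPM and a log2 ratio of -0.43 (-1.02 to 0.16). In the 25 and 39 barcodes above 30% it had 18 and 9 UMIs, 266 and 58.5 CPM and -2.18 (-3.52 to -0.96). Pck1 went opposite ways, at 0.77 (0.32 to 1.24) with 67 and 107 UMIs in the former and at -1.38 (-2.09 to -0.68) with 39 and 34 UMIs in the latter. The median mitochondrial shares of the barcodes above 30% were 65.9% and 47.9%, so that this group was not alike in the 2 libraries. G6pc was lower in tetYAP 4W in both groups, but only in the second by more than counting error. Poor in Malat1 but with at most 30% mitochondrial UMIs were 1615 and 71 barcodes, in which G6pc had 764 and 16 UMIs, 155 and 61.7 CPM and -1.33 (-2.14 to -0.62). In the same barcodes Pck1 was at 0.04 (-0.39 to 0.43) and Slc2a2 at 0.11 (-0.39 to 0.58), beside a median of all genes of 0.42.

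The upper tercile of each library by Malat1, 897 and 243 barcodes, which started at 7.09 per 10000 in the control and 7.82 in tetYAP 4W, covered more barcodes at a lower level. G6pc was at 180 and 90.7 CPM, -0.99 (-1.34 to -0.66), Fbp1 at -0.51 (-0.68 to -0.35) and Pygl at -0.32 (-0.65 to -0.01). Slc2a2 was at 0.40 (0.13 to 0.66), and the intervals of the other 4 reached over 0. The median of the 8 was -0.33 beside -0.03 for all genes, and 0 of 8 were past 2-fold lower (background 11.6%). In the lower tercile, G6pc was at 134 and 26.0 CPM, -2.36 (-2.96 to -1.82), and 5 of 8 were past 2-fold lower (background 36.3%). Slc2a2 was higher there too, at 0.31 (0.05 to 0.57).

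Within a library, barcodes with more Malat1 had more G6pc and more Pck1. In the control, G6pc was at 139 CPM in barcodes under 5 Malat1 per 10000 (1266 barcodes), 150 from 5 to 10, 174 from 10 to 20, 285 from 20 to 50 and 453 (325 to 615) at 50 or more (22 barcodes). In tetYAP 4W the same bins had 29.5 (338 barcodes), 49.2, 57.7, 82.7 and 231 (166 to 312) CPM (45 barcodes). Pck1 had 201, 203, 235, 365 and 619 CPM along the control bins and 126, 122, 203, 256 and 604 CPM along those of tetYAP 4W. G6pc in tetYAP 4W was below the control in each bin, while Pck1 came level with it in the highest bin. Along the same bins the median mitochondrial share went from 59.4% to 26.3% in tetYAP 4W and from 28.2% to 23.5% in the control, and its part in these profiles was not tested.

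Fbp1 and Slc2a2 had other profiles. Fbp1 had 555, 570, 555, 504 and 376 CPM along the control bins and 265, 304, 374, 430 and 401 CPM along the others. Slc2a2 had 132, 136, 143, 204 and 177 CPM in control bins and 163, 149, 203, 215 and 176 CPM in those of tetYAP 4W. For both genes the libraries lay further apart in the bin under 5 than in the highest bin.

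**Figure D3:**
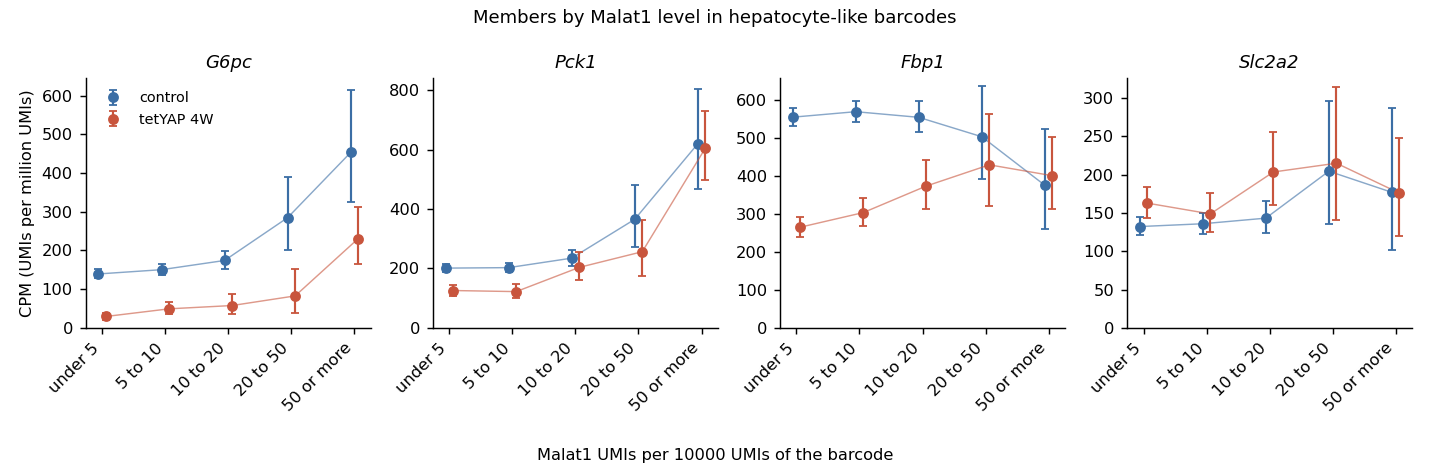
CPM of G6pc, Pck1, Fbp1 and Slc2a2 (linear axes from 0) in hepatocyte-like barcodes by Malat1 UMIs per 10000, in the control (blue) and tetYAP 4W (red); points are summed UMIs over the total of the bin and bars exact Poisson 95% intervals. G6pc went from 139 to 453 CPM (control) and from 29.5 to 231 CPM (tetYAP 4W), and Pck1 reached 619 and 604 CPM.

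Set against the other hepatocyte-like barcodes of the same library, the Malat1-rich barcodes of the control had more G6pc, with a log2 ratio of 1.24 (0.90 to 1.57), and more Pck1, 1.17 (0.87 to 1.46). The median of all genes was 0.67 there. In tetYAP 4W, G6pc was at 2.12 (1.62 to 2.60), Pck1 at 1.79 (1.50 to 2.08), Pklr at 2.38 (1.40 to 3.31) and Pygl at 1.40 (0.93 to 1.85), with a median of all genes of 0.74. Slc2a2 differed less, at 0.52 (0.05 to 0.95) in the control and 0.23 (-0.19 to 0.62) in tetYAP 4W. Of the 8, past 2-fold higher were 2 in the control (background 38.2%) and 5 in tetYAP 4W (background 41.3%). On the relative scale these counts were 0 (background 16.5%) and 3 (background 21.9%). The limit of 3 UMIs was 13.2 CPM in Malat1-rich and 0.367 CPM in Malat1-poor barcodes of the control, and 9.90 and 1.05 CPM in tetYAP 4W. This can raise ratios of genes with few UMIs, and so these medians and backgrounds, by an amount that was not tested. Between the upper and lower tercile by Malat1, of equal barcode number, the median of all genes was 0.05 in the control and 0.49 in tetYAP 4W. Gys2 had 165 UMIs in the 2624 Malat1-poor control barcodes, 20.2 CPM, and 0 in the 67 Malat1-rich ones.

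Counts in barcodes of other cell types, which should not use G6pc, were read as a background level. Free RNA was not measured in empty droplets here. In tetYAP 4W, G6pc had 0.130 UMIs per barcode (0.0861 to 0.187) in 216 lymphoid- or erythroid-like barcodes, 0.118 in endothelial-like, 0.141 in neutrophil- or monocyte-like and 0.124 in macrophage-like barcodes. The 653 hepatocyte-like barcodes poor in Malat1 had 0.173 (0.143 to 0.208), an interval that overlapped that of the lymphoid- or erythroid-like barcodes. The 77 Malat1-rich ones had 0.675 (0.504 to 0.886), above all of these. In the control, 165 endothelial-like barcodes had 0.485 (0.384 to 0.603), Malat1-poor hepatocyte-like ones 0.464 and Malat1-rich ones 1.19 (0.947 to 1.49). The 26 macrophage-like barcodes of the control had 0.692 (0.410 to 1.09), an interval that reached into that of the Malat1-rich ones. Of the 165 endothelial-like barcodes, 106 formed a cluster with little RNA of other cells, at 1858 CPM of non-hepatocyte markers beside 102618 CPM of hepatocyte markers, and 54 one with 10275 CPM. G6pc was at 0.462 (0.342 to 0.611) in the former and 0.537 (0.360 to 0.771) in the latter. In either library the G6pc interval of hepatocyte-like barcodes poor in Malat1, which made up most of the class, thus overlapped that of the endothelial-like barcodes.

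Shares of barcodes with a G6pc UMI were 15.0% in Malat1-poor hepatocyte-like barcodes of tetYAP 4W (median depth 4086 UMIs), 12.5% in lymphoid- or erythroid-like ones (4285 UMIs) and 33.8% in Malat1-rich ones (3692 UMIs). After thinning each barcode to 1000 UMIs the shares were 2.60%, 2.78% and 13.0%. In the control they were 35.7% in Malat1-poor hepatocyte-like (3095.5 UMIs), 38.8% in endothelial-like (3545 UMIs) and 49.3% in Malat1-rich barcodes (3196 UMIs), and 13.4%, 13.3% and 29.2% after thinning, which left out 21, 0 and 2 barcodes. Among the 26 macrophage-like barcodes of the control the share was 50%, and 15.4% after thinning. No expression is read from the shares in Malat1-poor barcodes, which lay within counting error of those in the lymphoid- or erythroid-like and endothelial-like ones.

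Pck1 was also highest in Malat1-rich barcodes. Its tetYAP 4W level was 0.588 UMIs per barcode in Malat1-poor and 1.83 in Malat1-rich hepatocyte-like barcodes, beside 0.481 in lymphoid- or erythroid-like, 0.496 in endothelial-like and 0.365 in macrophage-like ones. Fbp1 was at 1.28 and 1.62 in the hepatocyte-like barcodes and 1.31 in lymphoid- or erythroid-like ones, and in the control at 1.75, 1.54 and, in endothelial-like barcodes, 1.65. Macrophage-like barcodes held less Fbp1, at 0.679 (0.548 to 0.832) in tetYAP 4W and 0.923 (0.591 to 1.37) in the control. The Malat1-poor barcodes of tetYAP 4W held more Slc2a2, at 0.715 (0.652 to 0.783) against 0.444 (0.360 to 0.543) in lymphoid- or erythroid-like and 0.339 in endothelial-like barcodes. Its share of barcodes with a UMI was 50.5% there and 33.3% in the lymphoid- or erythroid-like ones, and 14.9% and 9.72% after thinning. In the control Slc2a2 was at 0.422 in Malat1-poor hepatocyte-like and 0.442 in endothelial-like barcodes, with no difference beyond counting error. Pygl in tetYAP 4W was at 0.285 (0.245 to 0.329) in Malat1-poor hepatocyte-like barcodes and 0.296 in lymphoid- or erythroid-like ones. Macrophage-like barcodes had 0.540 (0.424 to 0.678) and Malat1-rich ones 0.675 (0.504 to 0.886). Gys2 was at 0.0629 in Malat1-poor and 0.0606 in endothelial-like barcodes of the control. In tetYAP 4W it was at 0.0352 (0.0223 to 0.0529) in Malat1-poor and 0.0185 (0.00505 to 0.0474) in lymphoid- or erythroid-like barcodes.

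**Figure D4:**
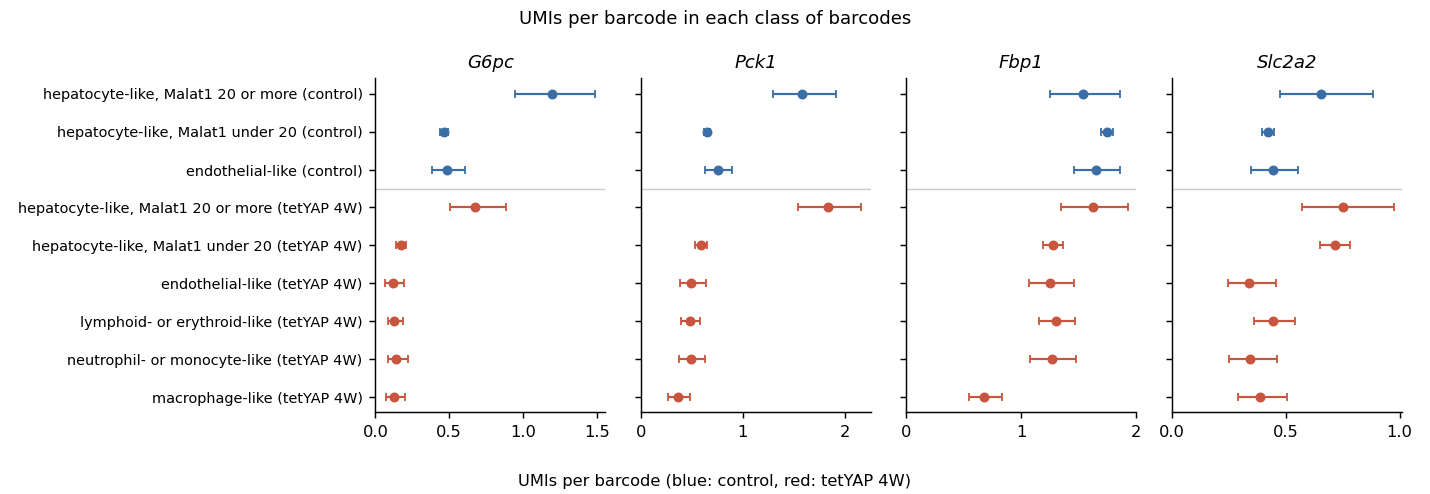
UMIs per barcode of G6pc, Pck1, Fbp1 and Slc2a2 in classes of barcodes of the control (blue) and tetYAP 4W (red) library; points are means over barcodes and bars exact Poisson 95% intervals. For G6pc the Malat1-rich hepatocyte-like barcodes lay apart, at 1.19 and 0.675, from Malat1-poor ones at 0.464 and 0.173 and from endothelial-like ones at 0.485 and 0.118.

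Gluconeogenesis is known to run mainly in periportal hepatocytes, near the incoming blood, and glycolysis in pericentral ones. Hepatocyte-like barcodes were ordered by the share of 10 periportal among 20 zonal genes, and the upper and lower terciles compared, with 880 barcodes each in the control and 238 each in tetYAP 4W. In the control, G6pc was at 128 CPM in the pericentral and 176 in the periportal tercile, a log2 ratio of 0.45 (0.25 to 0.65), and Pck1 at 207 and 236 CPM, 0.19 (0.03 to 0.35). In tetYAP 4W, Pck1 was at 147 and 204 CPM, 0.47 (0.17 to 0.79), and G6pc at 49.7 and 65.0 CPM, 0.39 (-0.16 to 0.94). The 2 genes had the same direction in both libraries, and for the other 6 the interval included 0 in both, Pklr of tetYAP 4W with 17 and 8 UMIs among them. None of the 8 was past 2-fold in the control (background 0.653% higher and 0.76% lower in the periportal tercile). In tetYAP 4W 0 were higher (background 1.13%) and 1, Pklr, was lower (background 2.87%). With under 30 UMIs, Pklr was not itself among the genes of that background. The zonal genes separated in part: the pericentral tercile of the control still held 1083 CPM of periportal genes, beside 2426 in the periportal tercile.

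Around the 8 genes, 112 further genes of 7 lists of carbohydrate metabolism and its control were read in the same barcodes. In hepatocyte-like barcodes 87 of them had at least 30 UMIs, and 11 were past 2-fold higher (background 15.8%) and 6 past 2-fold lower (background 9.56%) relative to the median of all genes. By list, the count of higher and lower was 3 and 1 of 17 measured for glycolysis, 0 and 1 of 17 for gluconeogenesis and pyruvate, and 2 and 2 of 13 for glycogen. It was 0 and 0 of 7 for fructose and galactose, 1 and 0 of 6 for pentose phosphate, 2 and 0 of 4 for transport, and 3 and 2 of 23 for hormonal and transcriptional control. The median relative ratio of a list ran from -0.76 for fructose and galactose and -0.53 for gluconeogenesis and pyruvate to 0.82 for transport.

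In glycolysis, Gckr, a regulatory protein of the first step of glycolysis in liver, had 429 and 288 UMIs, 51.0 and 91.1 CPM and a log2 ratio of 0.84 (0.62 to 1.06). Pkm, the pyruvate kinase of most tissues outside the liver, had 17 and 82 UMIs, 2.02 and 25.9 CPM and a log2 ratio of 3.68 (2.92 to 4.53). Without the cluster of macrophage markers it had 32 UMIs in tetYAP 4W and a log2 ratio of 2.71, and in Malat1-rich barcodes 2 and 5 UMIs. Pfkm, a muscle phosphofructokinase subunit, had 20 and 16 UMIs and Aldoc, an aldolase of brain, 74 and 7, with log2 ratios of 1.09 and -1.99.

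Among glycogen genes, Gaa, the lysosomal glucosidase that degrades glycogen, was at 18.7 and 37.6 CPM, a log2 ratio of 1.01 (0.66 to 1.36). Ppp1r3c, a subunit that targets protein phosphatase to glycogen, was at 33.4 and 12.7 CPM, -1.40 (-1.92 to -0.92), and Stbd1, a glycogen-binding protein, at 18.7 and 7.59 CPM, -1.30 (-1.98 to -0.67). Genes for glycogen turnover outside Gys2 and Pygl thus lay on both sides. Sds, serine dehydratase, which feeds serine into pyruvate, was at 96.0 and 39.5 CPM, -1.28 (-1.56 to -1.01), and was the 1 gene of its list past 2-fold on the relative scale, at -1.02.

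Of the regulators, Mlxipl, the carbohydrate response factor ChREBP, was at 49.3 and 96.2 CPM, 0.96 (0.74 to 1.18), and Insr, the insulin receptor, at 36.5 and 63.6 CPM, 0.80 (0.54 to 1.06). Igfbp1, a secreted binding protein repressed by insulin, was at 9.16 and 23.4 CPM, 1.35 (0.87 to 1.83). Nr0b2, a nuclear receptor that lacks a DNA-binding domain, was at 69.3 and 25.3 CPM, -1.45 (-1.81 to -1.11), and Ppara, the nuclear receptor of the fasting response, at 17.4 and 6.33 CPM, -1.46 (-2.21 to -0.78). Pgd of the pentose phosphate pathway was at 1.39 (0.92 to 1.87) and at 0.90 without the cluster of macrophage markers. Slc16a1, a lactate carrier, was at 1.18 (0.88 to 1.49) and Slc2a9, a urate carrier of the glucose transporter family, at 0.76 (0.25 to 1.26).

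In Malat1-rich barcodes 45 list genes had at least 30 UMIs. Gckr remained higher, with 57 and 155 UMIs, 251 and 512 CPM and a log2 ratio of 1.03 (0.58 to 1.49), and so did Insr with 13 and 41 UMIs, 1.24 (0.31 to 2.27). Got1, an aspartate aminotransferase, with 7 and 25 UMIs, Klf15 with 11 and 35 and Foxa2 with 9 and 32, both transcription factors, were past 2-fold higher there as well. Cebpa, a transcription factor of mature hepatocytes, was the 1 list gene past 2-fold lower, with 44 and 27 UMIs, 194 and 89.1 CPM and -1.12 (-1.87 to -0.40). Against the 6 higher and 1 lower, 13.3% and 9.65% of all genes were past 2-fold relative to their median. Sds, with 22 and 42 UMIs, and Nr0b2, with 22 and 20, stood at 0.52 and -0.55 there and were no longer past 2-fold. Mlxipl was not among the list genes past 2-fold there either. It was among the 10 genes most raised over the rest of their library in the hepatocyte-like clusters richest in Malat1. These held 117 control and 78 tetYAP 4W barcodes, and their part in the Mlxipl ratio was not tested.

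**Figure D5:**
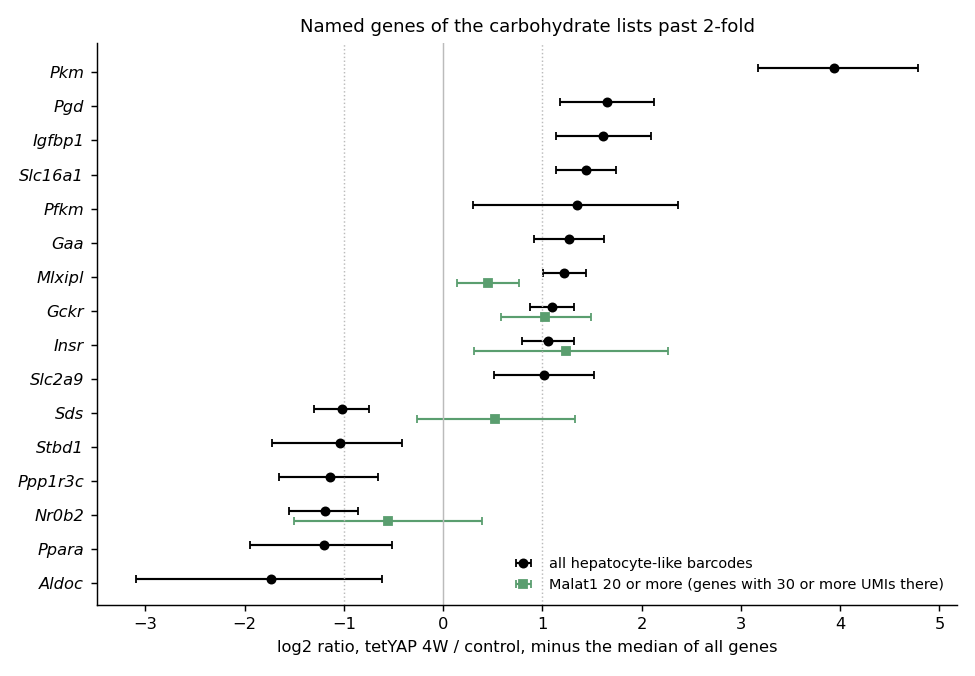
Genes named from the 7 carbohydrate lists, each past 2-fold in hepatocyte-like barcodes, as log2 ratio of tetYAP 4W over control minus the median of all genes; black points are all hepatocyte-like barcodes, green squares Malat1-rich barcodes where the gene had 30 or more UMIs, bars exact 95% intervals and dotted lines 2-fold. Gckr and Insr lay right of the upper dotted line in both selections.

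Over 18 clusters of at least 30 barcodes, the genes whose log2(CPM + 10) ran most like that of a member were, among 4093 genes, Insig1 (Pearson r = 0.977) and Ddc (0.973) for G6pc, and Errfi1 (0.964), Echdc2 (0.959) and Sema4g (0.951) for Pck1. For Fbp1 they were Ass1 (0.982), Orm1 (0.968) and Ttc36 (0.966), and for Pcx Hc (0.919), Cyp27a1 (0.895) and Tkfc (0.872). Pklr ran with Gcgr (0.898), Gys2 with Pigyl (0.869), Pygl with Asl (0.869) and Slc2a2 with Mug2 (0.871). These correlations are across clusters that share a library, its depth and its free RNA, and are given as a description.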

How the data were processed

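Hepatocytes of 1 control and 1 tetYAP 4W liver preparation were profiled on the 10x Chromium platform. The authors aligned reads to mm10 with Cell Ranger at default settings, and the table they deposited holds raw UMI counts per gene and barcode. Per the methods barcodes above 7500 UMIs had been removed, and none was found.

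Counts were clustered per barcode with scanpy 1.11.5 (Leiden resolution 0.8, 2000 variable genes, 20 components), leaving out 141 genes (members, lists, zonal genes, Malat1), and clusters named from markers. No doublet caller was run. UMIs were summed over barcodes and divided by the total (CPM), with exact 95% Poisson intervals, and log2 ratios had exact conditional binomial intervals from scipy 1.17.1. Counts under 3 were set to 3 for ratios. Where the compared pool held far fewer UMIs than the other, this can raise ratios of genes with few UMIs. The median and shares of all genes, and relative ratios, then move with it. All genes with at least 30 UMIs in both libraries together gave the background, where called means past 2-fold. The same code recovered 98.0% of simulated 4-fold and 96.9% of 2.83-fold changes in hepatocyte-like barcodes, and 100% and 93.1% in Malat1-rich ones. Apart from the changed genes, both simulated libraries shared a profile and differed by counting error only. They held no difference in mitochondrial share, free RNA or mix of cells. Selections by mitochondrial share and contrasts within a library were not simulated.

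Members and lists were chosen with earlier results of these data known. Named are the 8 members, Yap1, list genes past 2-fold in hepatocyte-like barcodes (up to 4 a direction and list) and the 3 genes most like a member. Values of some genes that these rules select are not reported here, though the counts include them. Got1, Klf15, Foxa2 and Cebpa were named after their values were seen. Alternatives were other limits, totals, weights, thinning, Leiden resolutions, class rules, Malat1 and zonal splits, and scaling by TMM factors from edgeR 4.0.16. Malat1 limits of 20 and 30, the removal of a cluster with macrophage RNA, the total without mitochondrial genes, the mitochondrial split of Malat1-rich barcodes and the TATAAA search were added after seeing the data.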

Additional observations from a re-analysis of the deposited data

Results flagged for a closer look

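For 2 genes the contrast of Malat1-rich over Malat1-poor hepatocyte-like barcodes went opposite ways in the 2 libraries, with both intervals off 0. Neither gene did so on both the plain and the relative scale. Fbp1 had a plain log2 ratio of -0.31 (-0.60 to -0.03) in the control and 0.50 (0.22 to 0.77) in tetYAP 4W. Relative to the median of all genes, Fbp1 was below 0 in both libraries. It stood at -0.97 (-1.27 to -0.69) in the control and -0.24 (-0.52 to 0.04) in tetYAP 4W. Pygl, relative to the median of all genes, stood at -0.65 (-1.20 to -0.15) in the control and 0.66 (0.19 to 1.11) in tetYAP 4W, while its plain log2 ratio was 0.02 in the control. The difference between the libraries was not tested, since each genotype has 1 library.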

How the results depend on the processing

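No paired analysis was possible because each genotype has 1 library. The median log2 ratio of the 8 genes in hepatocyte-like barcodes, -0.83, moved to -0.30 with a total without mitochondrial and the 50 most abundant genes, to -0.21 without mitochondrial genes alone and to 0.0035 in barcodes with at most 30% mitochondrial UMIs, where Gys2 turned from -1.20 to 0.0020. The relative median, -0.57, moved to -0.18 after thinning to 1000 UMIs and to -1.47 with the class called per barcode. It was below 0 under all 15 settings run, the main one among them. Those that only change the total, TMM factors included, cannot move a relative median and so do not test it. Over all barcodes the median, -0.98, moved to -1.54 with TMM factors, and the relative median, -1.48, to -1.14 after thinning and to -2.04 with at most 30% mitochondrial UMIs. In the upper Malat1 tercile, -0.33 and relative -0.30 moved to -1.02 and -1.88 with the class called per barcode, and ran up to 0.28 and 0.17 under others.

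Within libraries, the control median of the upper over the lower tercile by Malat1, 0.18, became 0.53 and 0.73 with limits of 20 and 30 per 10000, and the relative one, 0.13, became -0.44 with 30. In tetYAP 4W, 0.96 became 1.44 and 1.55 with these limits. The relative one, 0.46, became 1.59 with at most 30% mitochondrial UMIs, where Gys2 turned from 1.13 to -0.058. In the upper Malat1 tercile the periportal median of the control, 0.03 and relative 0.05, became 0.34 and 0.37, and Pklr of tetYAP 4W turned from -1.01 to 0.062 (relative).

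Of list genes, 6 were lower: 0 at a minimum of 100 UMIs, where fewer genes are counted, 2 at Leiden resolution 1.2, 37 with the class called per barcode and 1 in Malat1-rich barcodes. The 11 higher became 6 in Malat1-rich barcodes. Except where a smaller set of genes or barcodes shows it, the cause was not tested. Of 1157 values of single genes or lists under alternatives, 892 moved by less than counting error, 262 by more and 3 turned direction. A turn was counted only for values past 2-fold in the main setting. Smaller ratios that changed sign are in the other counts, such as Pck1, from -0.37 to 0.91 with at most 30% mitochondrial UMIs. The 892 include relative ratios under other totals, which cannot move. Depth limits Gys2, Pklr and Pcx most in Malat1-rich barcodes, with at most 28 UMIs a library.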
